A study of Mus musculus with 12 samples.

Results

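Brown adipose tissue of mice labelled as lacking Ebf2 in adipocytes was compared with that of control mice at room temperature, 3 libraries against 3, out of 12 libraries in the series. The 6 libraries were chosen by their genotype and temperature labels alone, and no measured value entered the choice. Control mice were Adipoq-Cre-; Ebf2 fl/fl and mutant mice were Adipoq-Cre+; Ebf2 fl/fl, so both groups carried floxed Ebf2 alleles and differed in the Cre transgene. All animals were aged 8-10 weeks. The remaining 6 libraries came from mice of the same genotypes after 1 week in the cold, and entered the estimate of spread and 1 test named in the closing section. Nothing in the labels tells separate animals from repeat libraries of the same tissue; the p-values therefore cover only the variation among these 6 libraries and the 6 from the cold, which could be technical.

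Brown fat burns lipid to make heat through uncoupling protein 1, a mitochondrial carrier that lets protons leak back across the inner membrane. Brown adipocytes also make large amounts of fatty acid and triglyceride from glucose, and white adipocytes, by contrast, mainly store lipid. Ebf2 is a transcription factor of the early B cell factor family that is known for binding enhancers of brown fat genes and for marking brown adipocyte precursors. The Adiponectin promoter used in Adipoq-Cre is active in differentiated adipocytes, so precursors, vessels, nerves and blood cells in the same tissue keep an intact gene.

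Levels are given as CPM, counts scaled to a common library total after TMM normalization, always in the order of replicates 1, 2 and 3. Differences are log2 fold changes, mutant-labelled minus control, with the standard error (SE), and a gene is called where its Benjamini-Hochberg adjusted p over all tested genes was under 0.05. CPM is not corrected for gene length, so levels are compared between libraries and not between genes. The 6 libraries held between 25835650 and 37927038 counts, at which 3 counts are 0.0764 to 0.109 CPM.

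Ebf2 itself did not separate the groups. It stood at 47.4, 64.1 and 32 CPM in controls and 65.2, 45.7 and 38.3 CPM in mutant-labelled libraries, with a difference of 0.06 ± 0.25 (adjusted p = 0.931). The groups overlapped widely, and the highest mutant-labelled value exceeded every control. The counts cover the whole gene, the sources used here do not say which exons are floxed, and cells without Cre contribute reads, so the count does not bear out the label. Every direction below therefore rests on the labels, and the libraries are called control and mutant-labelled. The related genes Ebf1 (0.23 ± 0.19, adjusted p = 0.552) and Ebf3 (0.32 ± 0.14, adjusted p = 0.212) were not called either. Of the 11 tested genes of the list of Ebf family members and partners 0 were called by edgeR, 3 had an unadjusted p under 0.05, and DESeq2 called 2.

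Adipocyte markers were abundant in all 6 libraries, with Plin1 between 969 and 2220 CPM and Fabp4 between 5380 and 13300 CPM, as was Ucp1 of brown fat, between 718 and 5620 CPM. The libraries differed in how much RNA of other tissues they held, and this touches several results below. The list of 34 skeletal muscle fibre genes took 3.63, 0.0128 and 2.59% of counts in controls and 0.163, 0.0104 and 2.42% in mutant-labelled libraries. Muscle load thus did not follow genotype: control 1, control 3 and mutant-labelled 3 were rich in it, mutant-labelled 1 held little, and control 2 and mutant-labelled 2 held almost none. Acta1, the skeletal muscle actin gene, ran with it at 4405, 2.11 and 2397 CPM in controls and 148, 5.12 and 2424 CPM in mutant-labelled libraries. The 5 defining muscle markers summed to 2.62 to 14200 CPM in controls and 5.26 to 12600 CPM in mutant-labelled libraries, and Myh1, Myh4 and Ckm were at 0 in mutant-labelled library 2. Of the 34 muscle genes 0 were called by edgeR, DESeq2 or limma-voom and 0 had an unadjusted p under 0.05, and each had a negative log2 fold change (median -1.24).

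Transcripts of the eye lens did follow genotype. The lens list held 30 genes, mostly for crystallins and lens membrane and filament proteins, of which 27 were tested. All 30 together took 0.066, 0.116 and 0.0463% of counts in controls and 0.0168, 0.0102 and 0.0174% in mutant-labelled libraries. Most of what remained in the latter came from Cryab and Lctl, genes not limited to the lens; without these, a choice made after their values were seen, the list summed to 222, 960 and 265 CPM in controls and 7.22, 6.81 and 10.1 CPM in mutant-labelled libraries. Every control library therefore lay above every mutant-labelled library, and control 2, with the least muscle of the controls, held the most lens RNA. The 5 defining lens markers summed to 98.9 to 446 CPM in controls and 0.576 to 1.19 CPM in mutant-labelled libraries. Erythrocyte genes took 0.318, 0.756 and 0.208% of counts in controls and 0.234, 0.261 and 0.169% in mutant-labelled libraries, so control 2 also stood apart in blood. What part these loads have in the other differences was not tested, apart from the fits without muscle-rich libraries or with muscle share as a covariate that are given beside the results.

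**Figure D1:**
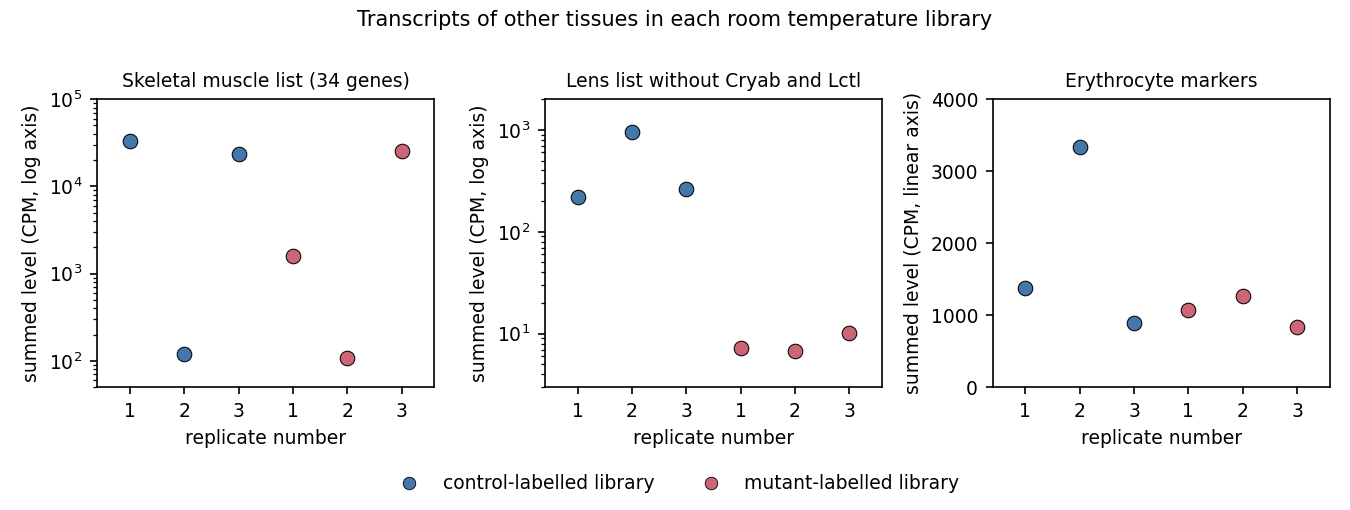
Summed level in CPM of the 34 skeletal muscle genes (log axis), of the lens list without Cryab and Lctl (log axis) and of 3 erythrocyte markers (linear axis), 1 point per room temperature library, in blue for controls and red for mutant-labelled libraries. Muscle is high in control 1, control 3 and mutant-labelled 3, lens transcripts lie between 222 and 960 CPM in controls and between 6.81 and 10.1 CPM in mutant-labelled libraries, and erythrocyte markers peak in control 2.

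The median log2 fold change of the tested lens genes was -7.34, although the tissue sampled was labelled brown fat. Cryaa, which encodes the alpha-A crystallin of lens fibre cells, was 57.5, 269 and 70.0 CPM in controls and 0.255, 0.432 and 0.313 CPM in mutant-labelled libraries (-8.64 ± 0.74, adjusted p = 0.00036). Cryba1, a beta crystallin gene, was 33.6, 140.4 and 38.9 against 0.102, 0.144 and 0.125 CPM (-9.14 ± 0.71, adjusted p = 0.000245). Crygs, a gamma crystallin gene, had 494, 1414 and 498 counts in controls and 0, 2 and 2 in mutant-labelled libraries. Mip, Cryba2, Crygf, Grifin and Gja3 had 0 counts in all 3 mutant-labelled libraries. Against 3 counts over the group, they were at least 273-fold, 345-fold, 87.2-fold, 21.8-fold and 16.4-fold lower. In all, 21 of 27 tested lens genes were called lower and 0 higher (12 lower with only the room temperature libraries in the fit, 17 to 21 when any 1 library was left out). The Cryg genes are near-identical in places and may share reads.

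Over all genes, 952 of 15265 tested were called, or 6.24%: 598 higher (3.92%) and 354 lower (2.32%) in mutant-labelled libraries. The median log2 fold change was -0.04, with quartiles of -0.32 and 0.21. Among the called genes 316 rose and 211 fell by more than 1 on the log2 scale. The 2 groups of libraries did not overlap for 3787 genes (24.8%), with mutant-labelled libraries above for 1976 (12.9%) and below for 1811 (11.9%), and 945 of the 952 called genes were among these. These shares over all genes are the background for every list count and every statement of no overlap below. With the replicate number as a block, 786 genes were called, 509 higher and 277 lower, and 694 of them were calls of the unblocked fit in the same direction.

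The number of calls depended on the libraries. It was 665 without control 2, 392 without control 3, 463 without mutant-labelled 2 and 501 without mutant-labelled 3, and 552 with only the room temperature libraries in the fit. Without the 3 muscle-rich libraries, which leaves 1 control, 312 genes were called and 41% of them were higher, against 62.8% with all libraries. The lone control is then assumed to vary like the other groups. Where a call was lost in that fit, the text below names it for some genes and not for all. With muscle share as a covariate 1017 genes were called, and 879 of these were also called without it. No gene called in the fit reported here was called in the opposite direction under any of the 17 alternatives. The genotype difference itself differed between room temperature and cold for 73 of 15265 genes (0.478%).

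**Figure D2:**
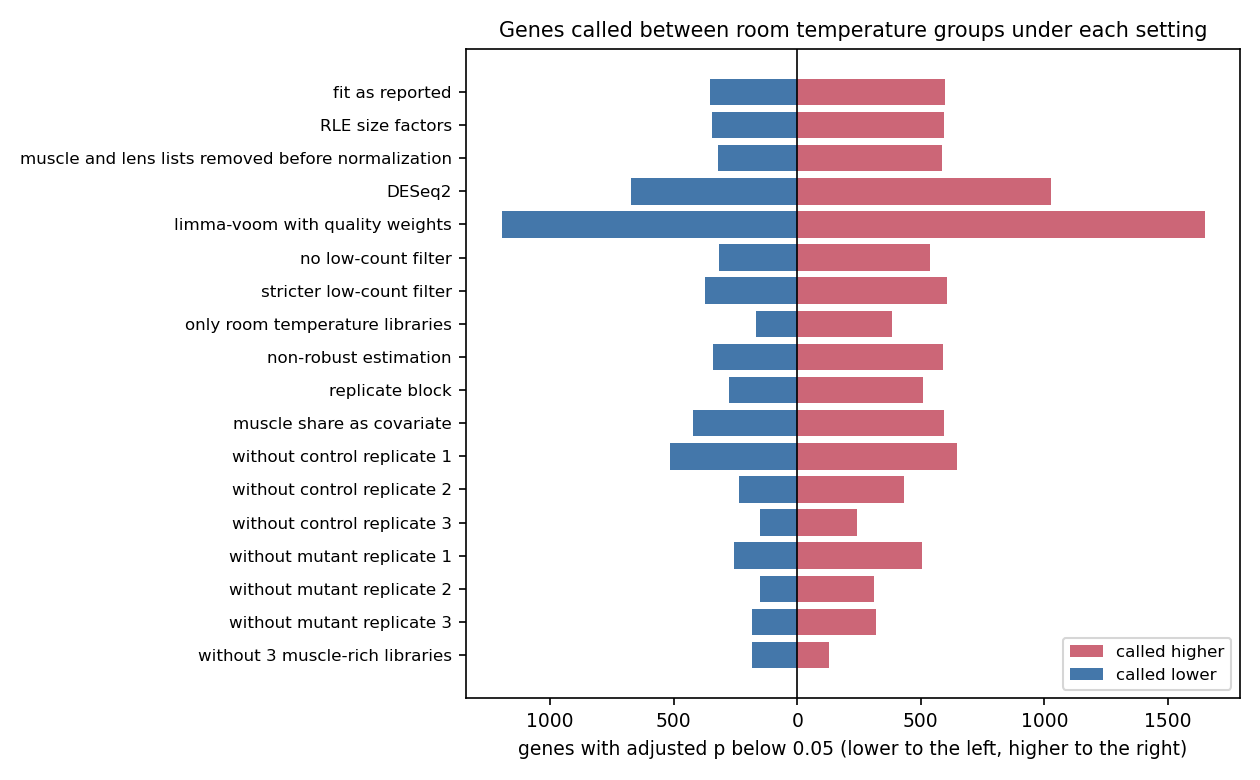
Number of genes with an adjusted p below 0.05 under each setting, with genes higher in mutant-labelled libraries to the right in red and lower genes to the left in blue. The fit as reported gives 598 and 354; DESeq2 and limma-voom give more, and every fit without 1 library other than control 1 gives fewer.

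Among the genes with the smallest p was Gldc, the glycine decarboxylase of the mitochondrial glycine cleavage system, at 0.384, 0.363 and 0.335 CPM in controls and 18.2, 15.6 and 15.5 CPM in mutant-labelled libraries (5.49 ± 0.47, adjusted p = 0.000245). The lowest mutant-labelled value was far above the highest control, and Gldc was called in all 17 alternative fits, including the one without muscle-rich libraries. The smallest p values of all, picked out after they were seen, belonged to Pik3cb, a catalytic subunit of phosphoinositide 3-kinase, and Impdh1, an enzyme of guanine nucleotide synthesis. Pik3cb rose from 23.3, 19.9 and 16.6 CPM to 74.6, 82 and 80.1 CPM (1.98 ± 0.16, adjusted p = 0.000245), and Impdh1 fell from 284, 390.1 and 375 CPM to 56.6, 67.3 and 37.6 CPM (-2.70 ± 0.22, adjusted p = 0.000245). No library of either group came near the other for these genes.

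Other genes of glucose, pyruvate and lactate use moved in both directions. Pcx, pyruvate carboxylase, which feeds oxaloacetate into the citric acid cycle, rose from 1189, 1074 and 928 CPM to 2624, 3416 and 2925 CPM (1.49 ± 0.19, adjusted p = 0.00141). Ldhb, the lactate dehydrogenase subunit associated with lactate oxidation, fell from 524, 618 and 572 CPM to 282, 248 and 226 CPM (-1.18 ± 0.15, adjusted p = 0.00148). The groups were clearly apart for both, with narrow spread within each. Slc16a1, the monocarboxylate transporter 1 gene, was 195, 391 and 237 CPM in controls and 117, 91.3 and 129 CPM in mutant-labelled libraries (-1.29 ± 0.24, adjusted p = 0.00917; not called without mutant-labelled 2). Me3, mitochondrial malic enzyme, fell from 48.2, 79.7 and 62.9 CPM to 10.2, 10.6 and 19.2 CPM (-2.25 ± 0.28, adjusted p = 0.00137), whereas Me1, the cytosolic malic enzyme that makes NADPH for lipid synthesis, rose by 1.68 on the log2 scale; Me1 was picked out after its value was seen. Isocitrate dehydrogenases split likewise: cytosolic Idh1 rose by 0.85 ± 0.14 and mitochondrial Idh2 had a log2 fold change of -1.22 ± 0.27, the latter not called without control 3, mutant-labelled 2 or mutant-labelled 3. In the list of 27 glucose uptake and glycolysis genes 2 were higher and 2 lower, with a median of 0.13. Each was 7.41%, against 3.92% higher and 2.32% lower over all genes tested. The higher count was 1 when any single library was left out. Pcx, Idh1 and Idh2 were not called without the muscle-rich libraries.

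Glycogen genes gave 2 calls of 22, both higher (1 without control 3, 0 without the muscle-rich libraries). The higher share was 9.09%, against 3.92% of all genes tested. Gys2, a glycogen synthase best known from liver, stood at 63.7, 55.4 and 53.6 CPM in controls and 134, 80.4 and 111 CPM in mutant-labelled libraries (0.92 ± 0.17, adjusted p = 0.00692). Outside the list, Ppp1r3g, a subunit that directs protein phosphatase 1 to glycogen, was low, at 1.26, 0.727 and 1.49 CPM in controls and 6.31, 11.7 and 2.88 CPM in mutant-labelled libraries (2.58 ± 0.46, adjusted p = 0.0069). Mutant-labelled 2 was highest for Ppp1r3g and lowest for Gys2 within its group, so their order differed between libraries although neither gene's groups overlapped.

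Carriers of the mitochondrial inner membrane were among the largest single changes, again in both directions: 3 of 41 tested were higher and 6 lower. Those were 7.32% and 14.6%, against 3.92% and 2.32% of all genes tested. Slc25a10, the dicarboxylate carrier, rose from 173, 67.8 and 75 CPM to 657, 979 and 969 CPM (3.04 ± 0.47, adjusted p = 0.0043). Slc25a25, an ATP-Mg/phosphate carrier, was 30.9, 8.32 and 17 CPM in controls and 122, 109.8 and 109.6 CPM in mutant-labelled libraries (2.60 ± 0.40, adjusted p = 0.00422). Controls were scattered for these genes, with control 1 the highest, and the mutant-labelled libraries of Slc25a25 were nearly equal. The citrate carrier Slc25a1, which exports the carbon used for lipid synthesis, rose from 588, 542 and 397 CPM to 1568, 2339 and 1836 CPM (1.91 ± 0.24, adjusted p = 0.00137).

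Going the other way, Slc25a42, which carries coenzyme A into mitochondria, was 391, 361 and 458 CPM in controls and 148, 109 and 89.8 CPM in mutant-labelled libraries (-1.80 ± 0.25, adjusted p = 0.00175). Slc25a34, a carrier of uncertain substrate, fell from 19.6, 32.5 and 48.6 CPM to 3.84, 4 and 8.96 CPM (-2.58 ± 0.38, adjusted p = 0.00311). Pank1, pantothenate kinase, the first enzyme of coenzyme A synthesis, fell from 371, 460.5 and 344 CPM to 210.2, 179.8 and 199.5 CPM (adjusted p = 0.00395). None of these genes overlapped between groups, as was the case for 24.8% of all tested genes. Slc25a10, Slc25a25, Slc25a34 and Pank1 were called in all 17 alternative fits, and Slc25a1 and Slc25a42 in all but the one without muscle-rich libraries. The count of carriers called lower was 2 without control 3 or with only the room temperature libraries, 3 without mutant-labelled 2 and 1 without muscle-rich libraries.

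**Figure D3:**
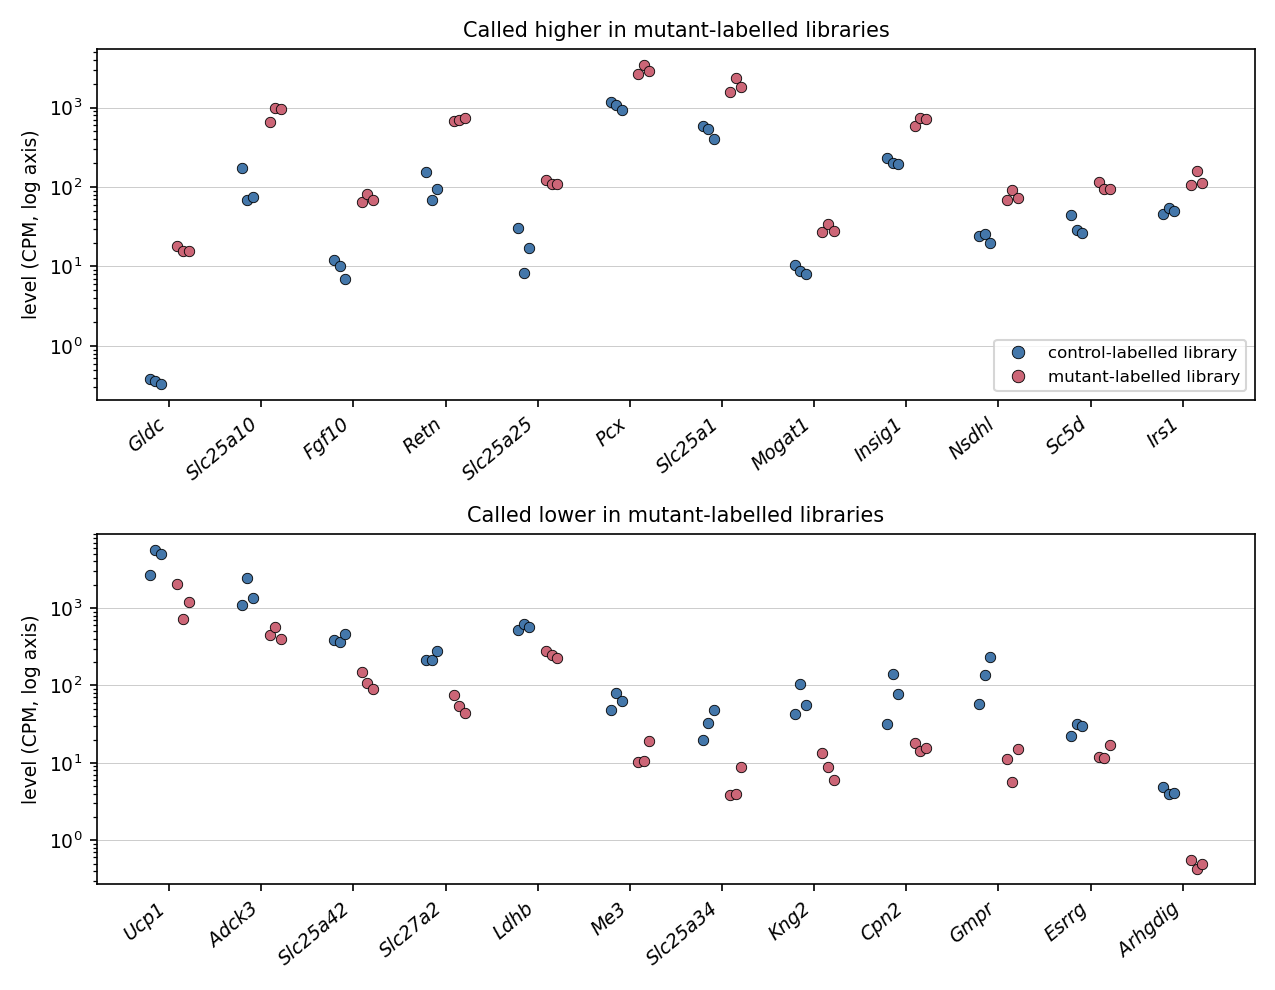
Level in CPM (log axis) of 12 genes called higher and 12 called lower in mutant-labelled libraries, with 1 point per library and replicates 1 to 3 from left to right within each colour. The 2 groups do not overlap for any of the 24 genes; Gldc shows the widest separation in the upper panel, and in the lower panel the lowest control lies close to the highest mutant-labelled library for Ucp1 and Esrrg.

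Enzymes of cholesterol synthesis were called higher in 11 of 21 tested cases and lower in 0, with a median of 0.91. Insig1, which holds the sterol-sensing complex in the endoplasmic reticulum and is itself sterol-responsive, was 234, 200.4 and 193 CPM in controls and 579, 730.1 and 712 CPM in mutant-labelled libraries (1.69 ± 0.16, adjusted p = 0.000339). Nsdhl, a sterol dehydrogenase late in the pathway, was 24.2, 25.3 and 19.7 against 69.6, 91.9 and 72.4 CPM (1.76 ± 0.20, adjusted p = 0.00114). Sc5d, which introduces a late double bond of the sterol ring, was 44.9, 28.6 and 26.2 against 115, 94.8 and 93.1 CPM (1.60 ± 0.25, adjusted p = 0.00362). All 3 separated the groups without overlap and were called in all 17 alternative fits. Pmvk, phosphomevalonate kinase, was 49.3, 51.6 and 51.8 CPM in controls and 116, 152 and 105 CPM in mutant-labelled libraries (1.28 ± 0.21, adjusted p = 0.00422). The Hmgcs1 gene is listed at 0 in all 12 libraries and could not be compared. Without the 3 muscle-rich libraries 2 of the 21 enzymes were called higher.

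The promoters of these sterol genes are shown because 15 of the 16 matched promoters of the cholesterol synthesis list hold the same short motif. They are RefSeq sequences of build GRCm38.p6, whereas the deposited counts were made on mm9, so the coordinates below belong to GRCm38.p6 only. Each is the 250 bases before the annotated start, read in the direction of the gene. Capitals mark CCAAT, the box bound by NF-Y, or its reverse complement; Slc25a1 is added as a called gene of fatty acid synthesis that holds it too.
Insig1 (chr5:28071162-28071411, plus strand): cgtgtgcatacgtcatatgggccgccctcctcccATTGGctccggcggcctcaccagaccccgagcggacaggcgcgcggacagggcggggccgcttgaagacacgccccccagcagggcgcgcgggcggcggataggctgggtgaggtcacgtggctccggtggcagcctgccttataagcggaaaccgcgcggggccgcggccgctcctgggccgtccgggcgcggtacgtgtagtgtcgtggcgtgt
Nsdhl (chrX:72918271-72918520, plus strand): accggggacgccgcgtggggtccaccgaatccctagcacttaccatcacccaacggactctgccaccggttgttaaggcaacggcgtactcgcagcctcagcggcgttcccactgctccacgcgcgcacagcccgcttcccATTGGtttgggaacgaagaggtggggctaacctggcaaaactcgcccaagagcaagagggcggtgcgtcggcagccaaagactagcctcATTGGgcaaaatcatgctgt
Sc5d (chr9:42264301-42264550, minus strand): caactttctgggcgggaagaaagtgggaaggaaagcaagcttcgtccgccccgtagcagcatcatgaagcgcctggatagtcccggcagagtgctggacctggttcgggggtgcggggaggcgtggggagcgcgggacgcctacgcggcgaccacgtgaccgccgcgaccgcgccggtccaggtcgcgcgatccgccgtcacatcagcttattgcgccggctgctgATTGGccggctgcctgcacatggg
Slc25a1 (chr16:17928220-17928469, minus strand): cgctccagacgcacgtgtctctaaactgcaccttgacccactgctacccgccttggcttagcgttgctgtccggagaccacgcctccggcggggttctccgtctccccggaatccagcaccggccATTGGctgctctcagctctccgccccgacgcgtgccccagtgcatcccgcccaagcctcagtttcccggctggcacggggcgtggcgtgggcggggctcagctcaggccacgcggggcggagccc

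Of 16 cholesterol synthesis genes with a matched promoter, 15 (93.8%) held CCAAT on either strand within 250 bases before to 50 after the start. The same share was 42.2% of the 11233 tested genes with a matched promoter, 59.1% of 22 fatty acid synthesis genes, 53.8% of the 13 genes of sterol sensing, uptake and efflux, the list to which Insig1 belongs, and 37.4% of all 32851 promoters of that length. Over all genes called higher it was 46.7% and over those called lower 38.3%. The sterol regulatory element, searched as TCACNCCAC, was in 0 of the 16 cholesterol synthesis promoters, 0 of the 13 of sterol sensing, 1.42% of tested genes and 1.24% of all promoters. The E-box CACGTG was in 3 of the 16 (18.8%), 11.4% of tested genes and 7.15% of all promoters, and the windows of Insig1, Sc5d and Slc25a1 above hold it, in lower case. A palindrome bound by early B cell factors, CCCNNGGG, was in 23.9% of promoters of genes called higher, 25.9% of those called lower and 21.3% of all tested genes (13.7% of all promoters). These are matches of letters and not sites of binding.

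Fatty acid synthesis was the list with the most calls among higher genes: 14 of 26 members were higher and 0 lower, with a median of 1.01. Summed over the list, levels were 63350, 51680 and 32400 CPM in controls and 95980, 146400 and 120800 CPM in mutant-labelled libraries, so every mutant-labelled library lay above every control. Elovl6, which lengthens palmitate, rose from 788, 740.2 and 565 CPM to 1921, 2964 and 1711 CPM (1.66 ± 0.23, adjusted p = 0.00178). Acss2, which makes cytosolic acetyl-CoA from acetate, was 421, 463 and 230.0 CPM in controls and 964, 1571 and 1036 CPM in mutant-labelled libraries (1.68 ± 0.27, adjusted p = 0.00392). The core enzyme genes Acly (1.54), Fasn (1.51) and Scd1 (1.29), picked out after their values were seen, were all called higher with the log2 fold changes given. The count of 14 fell to 8 without control 2, 5 without control 3 or without mutant-labelled 2, and 6 without mutant-labelled 3. It was 6 with only the room temperature libraries and 4 without the muscle-rich libraries.

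Triglyceride and phospholipid synthesis gave 7 higher (25.9%) and 1 lower (3.7%) of 27, against 3.92% and 2.32% of all genes tested. Mogat1, a monoacylglycerol acyltransferase, was 10.3, 8.79 and 7.98 CPM in controls and 27.2, 34.5 and 27.9 CPM in mutant-labelled libraries (1.72 ± 0.15, adjusted p = 0.000245). It was called in every alternative fit. Agpat2, an acyltransferase of the glycerol phosphate pathway, and Chpt1, a choline phosphotransferase, rose by 1.05 ± 0.18 and 0.97 ± 0.14. The lower member was Ptdss2, a phosphatidylserine synthase (-0.62 ± 0.15, adjusted p = 0.0342), which was called without control 1 but not when any other single library was left out. Without the muscle-rich libraries the higher members numbered 2.

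General adipocyte genes were called higher in 7 of 24 cases and lower in none, and genes enriched in white fat in 7 of 18 with none lower. Those higher shares were 29.2% and 38.9%, against 3.92% of all genes tested. Adipoq, the adiponectin gene whose promoter drives the Cre transgene, was 1219, 1375 and 1276 CPM in controls and 1900, 1970 and 1981 CPM in mutant-labelled libraries; these did not overlap, but the gene was not called (0.60 ± 0.16, adjusted p = 0.0512). Plin1, which coats the lipid droplets of adipocytes, rose from 1242, 1190 and 969 CPM to 2175, 2077 and 2219 CPM (0.93 ± 0.15, adjusted p = 0.00392). Retn, which encodes the adipokine resistin, was 155, 69.5 and 93.9 CPM in controls and 671, 689.8 and 736 CPM in mutant-labelled libraries (2.72 ± 0.41, adjusted p = 0.00374). Mutant-labelled libraries were close to each other for all 3 genes, whereas controls of Retn spread widely. Gsn, gelsolin, was 1496, 1106 and 1262 against 3594, 3505 and 4145 CPM (1.54 ± 0.22, adjusted p = 0.0023). All 18 tested white-fat-enriched genes had positive log2 fold changes, with a median of 1.37. Their count was 4 with the replicate block, 3 without control 2 or without control 3 and 1 without the muscle-rich libraries, where no general adipocyte gene was called.

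Lipid droplet and lipolysis genes gave 8 higher (36.4%) and 3 lower (13.6%) of 22, against 3.92% and 2.32% of all genes tested. Plin4, another droplet coat gene, was 904, 1033 and 790.3 CPM in controls and 2183, 2149 and 2515 CPM in mutant-labelled libraries (1.33 ± 0.25, adjusted p = 0.0078; not called without control 3). Plin5, which links droplets to mitochondria in oxidative tissues, went the other way, at 208, 246 and 178 against 133, 96 and 141 CPM (-0.77 ± 0.19, adjusted p = 0.0344). Cideb, the CIDE protein gene best known from liver, was 10.7, 21.4 and 14.9 CPM in controls and 6.69, 5.3 and 2.69 CPM in mutant-labelled libraries (-1.67 ± 0.32, adjusted p = 0.00871). The groups did not overlap for any of the 3, but Plin5 lost its call whichever single library was left out. Lipe, hormone-sensitive lipase, rose by 0.91 ± 0.15 (adjusted p = 0.00514). The lower genes numbered 0 with only the room temperature libraries, 1 with the replicate block and 1 when any single library other than control 1 was left out, and the higher genes 4 without control 3 or mutant-labelled 2, 5 without mutant-labelled 3 and 0 without the muscle-rich libraries.

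Binding and transport proteins for fatty acids split between family members. Fabp5, a binding protein of many cell types, was 133, 51.4 and 76.7 CPM in controls and 419.5, 471 and 433 CPM in mutant-labelled libraries (2.34 ± 0.43, adjusted p = 0.00833). Fabp3, the heart and muscle binding protein that brown fat also makes, was 489.6, 563 and 665 CPM in controls and 287, 90.1 and 111 CPM in mutant-labelled libraries (-1.82 ± 0.42, adjusted p = 0.0262). In control 2, which held almost no muscle RNA, Fabp3 was 563 CPM. The part of muscle RNA in the Fabp3 difference was not tested. Among transport proteins, Slc27a1 was 573, 366 and 426 against 1028, 1291 and 1150 CPM (1.34 ± 0.30, adjusted p = 0.0219) and Slc27a2 216, 214 and 281 against 76.3, 54 and 43.9 CPM (-2.03 ± 0.26, adjusted p = 0.00141). Each group lay apart for both, in opposite directions. Fabp5 was not called without control 3, and Fabp3 and Slc27a1 were not called without control 2, control 3, mutant-labelled 2 or mutant-labelled 3. Without the muscle-rich libraries none of Fabp3, Fabp5, Slc27a1 and Slc27a2 was called.

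Peroxisomal genes were called higher in 10 of 39 cases and lower in 1. Those were 25.6% and 2.56%, against 3.92% and 2.32% of all genes tested. Pex16, which helps form the peroxisomal membrane, rose from 152, 109 and 110.0 CPM in controls to 254, 247 and 240.5 CPM in mutant-labelled libraries (1.00 ± 0.17, adjusted p = 0.00536). The groups did not overlap, and Pex16 was called in 16 of 17 alternative fits, the exception being the fit without the muscle-rich libraries (adjusted p = 0.0513). The count of higher genes was 6 without control 2, mutant-labelled 1 or mutant-labelled 3, 5 without control 3 or mutant-labelled 2, 5 with only the room temperature libraries and 3 without the muscle-rich libraries.

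Mitochondrial fatty acid oxidation, in contrast, had 3 higher and 4 lower of 31, with a median of -0.37. Those were 9.68% and 12.9%, against 3.92% and 2.32% of all genes tested. Cpt1b, the muscle-type carnitine palmitoyltransferase that admits fatty acids to mitochondria in brown fat, was 790.1, 1273 and 982 CPM in controls and 618, 412 and 439 CPM in mutant-labelled libraries (-1.05 ± 0.20, adjusted p = 0.00902). Acaa2, the last enzyme of the oxidation spiral, was 1846, 2496 and 2191 against 1230, 1079 and 782 CPM (-1.08 ± 0.25, adjusted p = 0.0237). Control 2, which held almost no muscle RNA, was the highest library for both. The part of muscle RNA in these differences was not tested. Cpt1b was not called without mutant-labelled 2 or 3 or with only the room temperature libraries, nor Acaa2 without control 2, control 3, mutant-labelled 2 or mutant-labelled 3. Acaa2 also lost its call without the muscle-rich libraries. The 4 lower calls of the list were 2 with the replicate block or only the room temperature libraries, 2 without control 2, 1 without control 3, 0 without mutant-labelled 2 or 3, and 8 with muscle share as a covariate; the 3 higher calls were 1 without control 3, without mutant-labelled 3 or without the muscle-rich libraries.

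The thermogenic list had 8 of 32 members lower, 2 higher and 22 not called. The lower share was 25%, against 2.32% of all genes tested, and the higher share 6.25%, against 3.92%. Ucp1 was 2684, 5617 and 5059 CPM in controls and 2020, 718 and 1186 CPM in mutant-labelled libraries (-1.77 ± 0.39, adjusted p = 0.0199). Control 1, the control with the most muscle RNA, was the lowest control, and mutant-labelled 1 came close to it. Ucp1 was not called without control 2, control 3, mutant-labelled 2 or mutant-labelled 3 (adjusted p from 0.0648 to 0.0838), with the replicate block (0.0719), with only the room temperature libraries (0.0747) or without the muscle-rich libraries (0.108); over all 17 alternatives it was called in 10.

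Cpn2, a carboxypeptidase N subunit gene, was 31.5, 142 and 77.7 CPM in controls and 17.9, 14.1 and 15.4 CPM in mutant-labelled libraries (-2.40 ± 0.41, adjusted p = 0.00633); it was not called with the replicate block or with only the room temperature libraries. Elovl3, a fatty acid elongase usually counted as a brown fat gene, went against the list, from 22.7, 13.3 and 25.6 CPM to 70.3, 41.8 and 76.2 CPM (1.61 ± 0.27, adjusted p = 0.00452), and was called in every alternative fit. Cidea, a droplet protein of brown fat, was 1720, 3481 and 2649 against 1636, 1502 and 1257 CPM and not called (-0.84 ± 0.26, adjusted p = 0.083). Dio2, which activates thyroid hormone, was 249, 421 and 322 against 325, 428 and 270.2 CPM (0.04 ± 0.44, adjusted p = 0.97), and its groups overlapped widely. The coactivator Ppargc1a (0.30 ± 0.33), the cofactor Prdm16 (-0.17 ± 0.28) and the adipogenic receptor Pparg (-0.05 ± 0.19) were not called either, with no adjusted p under 0.695. The 8 lower genes were 5 without control 2, 3 without mutant-labelled 2 or 3, and 4 with only the room temperature libraries or without the muscle-rich ones.

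Slc27a2 also carries a motif that was searched because of the nuclear receptors among the lower genes. Esrrg and Esrra, the estrogen-related receptors that drive mitochondrial genes, were 22.5, 31.7 and 30.2 against 11.9, 11.5 and 17.3 CPM (-1.06 ± 0.18, adjusted p = 0.0049) and 256, 335 and 306 against 180.2, 189 and 188 CPM (-0.69 ± 0.15, adjusted p = 0.0187). Esrrg was called in every alternative fit, and Esrra was not called when any single library other than control 1 was left out. Perm1, a regulator acting with these receptors, was 67.4, 36 and 66.3 against 23, 11.3 and 25.9 CPM (-1.50 ± 0.32, adjusted p = 0.0189), with no overlap. Perm1 was not called without control 3 or mutant-labelled 2 or with only the room temperature libraries. Without the muscle-rich libraries neither Esrra nor Perm1 was called. Capitals below mark AAGGTCA, the receptors' half-site, or its reverse complement, in the 250 bases before the start.
Slc27a2 (chr2:126552774-126553023, plus strand): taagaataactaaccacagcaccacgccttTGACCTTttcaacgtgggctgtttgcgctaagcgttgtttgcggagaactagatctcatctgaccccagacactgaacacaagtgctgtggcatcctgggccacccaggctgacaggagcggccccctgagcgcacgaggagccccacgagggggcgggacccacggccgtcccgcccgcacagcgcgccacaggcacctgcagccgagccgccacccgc

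AAGGTCA was in 7.89% of the 266 matched promoters of genes called lower, 4.29% of the 443 of genes called higher, 4.24% of all tested genes and 4.72% of all promoters of that length.

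Adrenergic and cAMP signalling, the route by which nerves switch on heat production, gave 5 higher and 5 lower of 39, with a median of -0.04. Each was 12.8%, against 3.92% higher and 2.32% lower over all genes tested. Adrb3, the beta-3 adrenergic receptor of adipocytes, was 222, 116 and 172 CPM in controls and 625, 362 and 367 CPM in mutant-labelled libraries (1.41 ± 0.27, adjusted p = 0.0106; not called without control 3). Gnas, which encodes the stimulatory G protein subunit next in that route, was 1764, 4107 and 3443 against 1239, 1284 and 1175 CPM (-1.33 ± 0.29, adjusted p = 0.0185). The receptor was thus higher and the G protein transcript lower, each without overlap, although Gnas was not called when any single library other than control 1 was left out. The phosphodiesterases, which break down cAMP, also split: Pde3b rose from 336, 352 and 316 CPM to 527, 599 and 582 CPM (0.77 ± 0.13, adjusted p = 0.00536), while Pde4a fell from 49, 87.3 and 80.1 CPM to 29.6, 29.6 and 32 CPM (-1.25 ± 0.19, adjusted p = 0.0036). Sik1, a cAMP-induced kinase, was 33.6, 43 and 38.2 CPM in controls and 114, 91.2 and 93.3 CPM in mutant-labelled libraries (1.38 ± 0.18, adjusted p = 0.00141). Neither Pde3b nor Sik1 was called without the muscle-rich libraries. The lower genes numbered 3 with the replicate block, 2 with only the room temperature libraries, 2 without control 2 or 3 and 1 without any mutant-labelled library; the higher genes were 3 with the block or only the room temperature libraries, 2 without control 3, 3 without mutant-labelled 2 or 3, and 1 without the muscle-rich libraries.

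Transcripts of nuclear-encoded respiratory and ATP synthase subunits were lower almost throughout, but few passed the test. Of 84 tested, 83 had negative log2 fold changes (median -0.68), 57 (67.9%) had every mutant-labelled library below every control, against 11.9% of all tested genes, and 3 were called lower: Ndufb8, Cox6b2 and Atp5o. Ribosomal protein genes leaned the same way. Of 78 cytosolic ones 75 were negative and 3 positive, with 35 below every control and 1 above. Of 76 mitochondrial ones 66 were negative and 10 positive, with 33 below and 0 above. Complex I subunits summed to 13750, 13660 and 16020 CPM in controls and 10570, 9096 and 7606 CPM in mutant-labelled libraries. ATP synthase summed to 14820, 14670 and 16470 CPM in controls and 11730, 10870 and 9467 CPM in mutant-labelled libraries. Sums for the other complexes separated the groups in the same way, with control 3 highest and mutant-labelled 3 lowest.

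Muscle makes the same subunits, so the difference was also taken within each class of muscle load. Between the muscle-rich libraries (controls 1 and 3 against mutant-labelled 3) the median log2 difference was -0.96 in complex I, -1.05 in complexes II and III, -1.19 in complex IV and -0.86 in ATP synthase. Between the others (control 2 against mutant-labelled 1 and 2) it was -0.46, -0.37, -0.32 and -0.20. These within-class values have no test, and over all tested genes the medians were -0.04 and 0. The classes were not matched for muscle: the median of the muscle list itself was -0.32 in the first and 2.79 in the second. In the second class muscle genes took 0.0128% of counts in control 2 and 0.163% in mutant-labelled 1. Ndufb8 was 714, 988 and 947 CPM in controls and 492, 543 and 445 CPM in mutant-labelled libraries (-0.84 ± 0.23, adjusted p = 0.0475), and was called in 6 of 17 alternative fits. None of the 3 genes was called without control 3, mutant-labelled 2 or mutant-labelled 3, and neither Ndufb8 nor Atp5o without control 2 or mutant-labelled 1 or with the replicate block. With muscle share as a covariate, 3 genes of complex I, 2 of complexes II and III, 2 of complex IV and 1 of ATP synthase were called lower. In the same order DESeq2 called 10, 3, 3 and 2 and limma-voom 33, 13, 12 and 10.

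**Figure D4:**
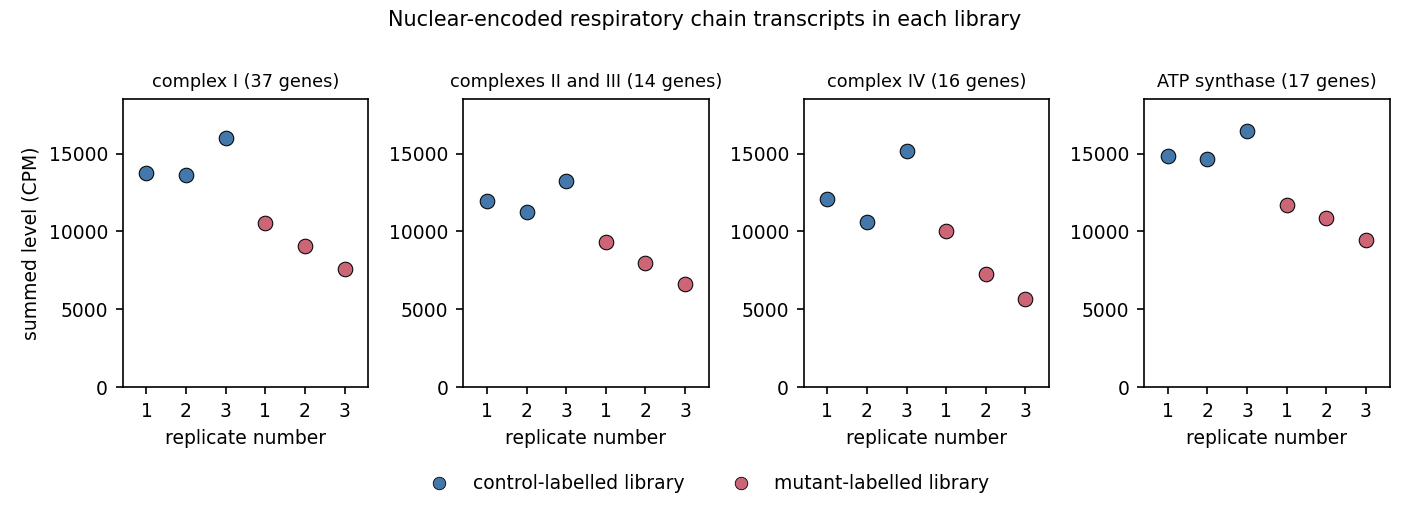
Summed level in CPM (linear axis from 0) of nuclear-encoded subunits of complex I, complexes II and III, complex IV and ATP synthase, 1 point per library in replicate order. Complex I ran from 13660 to 16020 CPM in controls and from 7606 to 10570 CPM in mutant-labelled libraries, and the groups do not overlap in any panel.

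Coenzyme Q genes gave 2 lower (15.4%, against 2.32% of all genes tested) and 0 higher of 13. The lower count was 1 without control 3, mutant-labelled 2 or mutant-labelled 3. Adck3, also called Coq8a, which is needed for coenzyme Q synthesis, fell from 1095, 2443 and 1347 CPM to 448, 564 and 397 CPM (-1.79 ± 0.27, adjusted p = 0.00279). Control 2 was the highest, and the lowest control was above the highest mutant-labelled library; the gene was called in every alternative fit. Coq10a was 144, 109 and 168 against 91.6, 63.2 and 64.7 CPM (-0.93 ± 0.22, adjusted p = 0.0249; not called without control 3, mutant-labelled 2 or mutant-labelled 3). Genes for mitochondrial fission and DNA upkeep included Mief2, a fission adaptor, at 80.0, 77.8 and 90.4 against 45.2, 50.1 and 53.5 CPM (-0.74 ± 0.11, adjusted p = 0.00262), and Peo1, the mitochondrial helicase, at 31.8, 37.7 and 36.7 against 22.8, 22.4 and 24.1 CPM (-0.62 ± 0.12, adjusted p = 0.00979). Peo1 was not called without control 3 or mutant-labelled 2. Coq10a, Mief2 and Peo1 were not called without the muscle-rich libraries. Mitochondrial ribosomal proteins had 1 of 76 called lower (4 without control 1, 0 without any other single library) and a median of -0.29, and cytosolic ribosomal proteins 0 of 78 by edgeR (7 at an unadjusted p under 0.05, 1 by DESeq2) and a median of -0.25.

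Insulin and growth factor genes gave 3 higher (10.3%, against 3.92% of all genes tested) and 0 lower of 29. Irs1, the insulin receptor substrate, was 45.4, 53.7 and 50.4 CPM in controls and 107, 157 and 111 CPM in mutant-labelled libraries (1.33 ± 0.21, adjusted p = 0.0036). Igfbp4, which binds insulin-like growth factors, was 117, 100.2 and 92.9 against 352, 375 and 442 CPM (1.91 ± 0.26, adjusted p = 0.00175). Both kept the groups apart with little spread within each. Neither was called without the muscle-rich libraries, a fit that leaves 1 control.

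Among the largest increases was Fgf10, a fibroblast growth factor, which rose from 12.1, 10.2 and 7.01 CPM to 63.9, 81.8 and 68.1 CPM (2.86 ± 0.35, adjusted p = 0.00136). Ptges, prostaglandin E synthase, was 28, 20.2 and 16.3 CPM in controls and 97.8, 140.1 and 179 CPM in mutant-labelled libraries (2.69 ± 0.37, adjusted p = 0.00219). Ffar2, a receptor for short-chain fatty acids, was 11.3, 13 and 11 against 45.5, 64.2 and 123 CPM (2.72 ± 0.60, adjusted p = 0.0262). Mutant-labelled 3 was the highest library for Ptges and Ffar2, and no group overlapped. Ffar2 was called when mutant-labelled 1 was left out but not without any of the other 5 libraries, nor with the replicate block. B3galt2, a galactosyltransferase, rose by 2.64 ± 0.52 (not called with the replicate block or without control 2, control 3 or mutant-labelled 3). Grb7, a receptor adaptor, rose by 2.63 ± 0.66. Grb7 was not called without control 1, control 2 or any single mutant-labelled library. Nor was it called with limma-voom, with muscle share as a covariate or with only the room temperature libraries. Fgf10, Ptges, Ffar2, B3galt2 and Grb7 were also not called without the muscle-rich libraries. Acot5, a peroxisomal thioesterase with near-identical relatives that may share reads, had 19, 0 and 9 counts in controls and 100, 128 and 48 in mutant-labelled libraries (3.38 ± 0.75, adjusted p = 0.0199; not called with the replicate block or without control 3 or mutant-labelled 2).

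Among secreted factors of brown fat 2 of 23 were higher (8.7%, against 3.92% of all genes tested) and 4 lower (17.4%, against 2.32%). Kng2, a kininogen gene, fell from 43.4, 106 and 55.9 CPM to 13.6, 8.79 and 5.95 CPM (-2.85 ± 0.36, adjusted p = 0.00148), with control 2 far above the other controls. Pm20d1, an enzyme that makes N-acyl amino acids, was 22, 41.7 and 26.3 against 16, 12.5 and 10.3 CPM (-1.21 ± 0.24, adjusted p = 0.0118). Nampt, which makes a precursor of NAD, was 323, 330.1 and 319 against 229.8, 209 and 197 CPM (-0.61 ± 0.11, adjusted p = 0.00747). Pm20d1 was not called without mutant-labelled 2 or 3, nor Nampt without mutant-labelled 3, and neither with only the room temperature libraries. Nampt was also not called without the muscle-rich libraries. The lower count was 1 with only the room temperature libraries, 2 without mutant-labelled 2 or 3 and 2 without the muscle-rich libraries; the higher count was 0 without control 2, control 3, mutant-labelled 1, mutant-labelled 3 or the muscle-rich libraries.

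Several of the largest decreases outside the lens list were in genes of low level, but Gmpr, Lgr6 and Mmd2 stood at 12.9 to 234 CPM in controls. Gmpr, GMP reductase of purine metabolism, was 57.7, 135 and 234 CPM in controls and 11.1, 5.73 and 14.9 CPM in mutant-labelled libraries (-3.75 ± 0.56, adjusted p = 0.00392). Lgr6, a receptor for R-spondins, was 12.9, 96.4 and 62.8 against 3.23, 0.577 and 0.533 CPM (-5.27 ± 0.89, adjusted p = 0.00973), and Mmd2 56.2, 26.5 and 28 against 0.916, 1.33 and 0.94 CPM (-5.12 ± 0.89, adjusted p = 0.00984). Controls varied widely for each, with control 1 the lowest for Gmpr and Lgr6 and the highest for Mmd2. Sgk2, a serum- and glucocorticoid-regulated kinase, had 60, 265 and 390 counts in controls and 2, 12 and 2 in mutant-labelled libraries. Arhgdig, a GDP dissociation inhibitor of small GTPases, had 178, 108 and 134 counts in controls and 22, 12 and 16 in mutant-labelled libraries (-3.09 ± 0.38, adjusted p = 0.00136). Fam131c (-3.75 ± 0.35), Rnf182 (-3.62 ± 0.54), a ubiquitin ligase, Slco4a1 (-2.87 ± 0.46), an organic anion transporter, Dnajc22 (-3.55 ± 0.61), a DNAJ-family chaperone gene, and Il1rn (-3.09 ± 0.51), the interleukin 1 receptor antagonist, completed this set at means of at least 1 CPM over the 6 libraries. Fras1, a basement membrane protein gene, had 32, 212 and 77 counts against 4, 2 and 6 (-4.86 ± 1.17, adjusted p = 0.03) and was not called when any single library other than control 1 was left out. Sgk2, Lgr6 and Gmpr were not called with only the room temperature libraries in the fit, nor Lgr6 with the replicate block, nor Mmd2 without mutant-labelled 3. Without the muscle-rich libraries Mmd2, Fras1, Dnajc22 and Il1rn were not called.

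Genes of cell types other than adipocytes were summed to set beside these differences. In bulk tissue, fewer cells of a type and less RNA per cell cannot be told apart. The macrophage and antigen presentation list had 0 of 29 called by edgeR (2 at an unadjusted p under 0.05, 2 by DESeq2), and its sum of 437.6 to 822.6 CPM in controls spanned the 604.5 to 741.7 CPM of mutant-labelled libraries. Endothelial markers summed to 423 to 634 CPM in controls and 451 to 584 CPM in mutant-labelled libraries, the fibroblast markers Pdgfra, Col1a1 and Dcn to 338 to 494 and 390 to 471 CPM, and Schwann cell markers to 12.6 to 146 and 10.2 to 206 CPM, all overlapping. The whole list of 31 fibroblast and preadipocyte genes did not overlap, at 6587, 4469 and 4863 CPM in controls and 8312, 8089 and 8852 CPM in mutant-labelled libraries; its most abundant member was Gsn, described above, and 2 genes were called higher and 1 lower, with a median of 0.07. Epithelial markers summed to 9.99 to 15.6 CPM in controls and 3.95 to 6.56 CPM in mutant-labelled libraries without overlap, but 0 of 16 epithelial genes were called by edgeR or DESeq2 and 0 had an unadjusted p under 0.05. The hepatocyte markers Alb, Apoa1 and Ttr stayed at or under 0.823 CPM in sum in every library. Of the wider list of 22 hepatocyte and plasma protein genes 12 were tested, with 2 called higher, 8 at an unadjusted p under 0.05 and a median of 1.85. The whole list summed to 849, 422 and 613 CPM in controls and 1594, 2625 and 2838 CPM in mutant-labelled libraries, without overlap. Most of that sum was Trf, transferrin, at 517, 299 and 341 against 994, 1916 and 1863 CPM (2.04 ± 0.53, adjusted p = 0.0465), and Cyp2e1, a cytochrome P450, at 327, 119 and 267 against 593, 703 and 956 CPM (1.66 ± 0.72, adjusted p = 0.236), which was not called; Trf was called in 9 of 17 alternative fits and lost its call with the replicate block and without any single library other than mutant-labelled 1. The count called higher was 0 without control 3, mutant-labelled 3 or the muscle-rich libraries, and 1 with the block or without control 2 or mutant-labelled 2. The part of these cell types in the other differences was not tested.

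Single genes of these lists were called all the same. Nos3, the nitric oxide synthase of endothelium, rose from 40.2, 45 and 44.6 CPM to 95, 98.8 and 113 CPM (1.24 ± 0.14, adjusted p = 0.00116). Cldn5, an endothelial tight junction gene, was 31.7, 22.4 and 24.8 against 63, 72.2 and 85 CPM (1.48 ± 0.23, adjusted p = 0.00367). These were 2 of 24 endothelial genes called (8.33%, against 6.24% of all genes tested), beside an overlapping endothelial marker sum, and neither was called without the muscle-rich libraries (adjusted p = 0.0554 and 0.0686). Mcam, a pericyte and endothelial adhesion molecule, was 105, 74.4 and 61.7 CPM in controls and 206, 179.8 and 196 CPM in mutant-labelled libraries (1.27 ± 0.18, adjusted p = 0.00221). Dlk1, a preadipocyte gene, had 63, 82 and 82 counts in controls and 28, 16 and 2 in mutant-labelled libraries (-2.39 ± 0.64, adjusted p = 0.0464), and was not called with the replicate block or when any single library other than control 1 was left out.

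Of 26 inflammatory cytokine and complement genes 2 were called higher and 1 lower, of 36 oxidative stress and glutathione genes 4 higher and 1 lower, and of 20 clock genes 2 higher and 1 lower, against 3.92% higher and 2.32% lower over all genes tested. With 1 library left out the higher calls were 1 to 3 for the inflammatory list and 2 to 4 for the oxidative stress list, and the lower calls 1 and 0 to 3. Cfb, complement factor B, was 30.6, 32.2 and 25 CPM in controls and 87.8, 132 and 233 CPM in mutant-labelled libraries (2.37 ± 0.40, adjusted p = 0.00633), and mutant-labelled 3 was well above the others. Rsad2, an interferon-stimulated gene, fell from 24.3, 40.4 and 29.9 CPM to 10.8, 15.9 and 12.2 CPM (-1.28 ± 0.19, adjusted p = 0.00263), whereas Irf7 of the same list had a log2 fold change of 0.82 ± 0.20 (adjusted p = 0.0341; not called with the replicate block or without control 2, control 3, mutant-labelled 2 or mutant-labelled 3). Those were 2 of 30 interferon-stimulated genes. Of 20 heat shock genes 0 were called by edgeR or DESeq2 and 0 had an unadjusted p under 0.05. Of 23 immediate early genes 0 were called by edgeR, 6 had an unadjusted p under 0.05 and DESeq2 called 1. Phgdh, the first enzyme of serine synthesis, rose by 1.39 ± 0.25 (adjusted p = 0.00747) and was not called with the replicate block. Of 20 clock genes, Nfil3, a circadian repressor, was 22, 37.8 and 49.2 against 12, 13.6 and 12 CPM (-1.53 ± 0.30, adjusted p = 0.0116; not called without control 3), and 2 were higher (0 without control 2, control 3, mutant-labelled 2 or mutant-labelled 3, and 1 without mutant-labelled 1). Without the muscle-rich libraries Cfb, Irf7, Phgdh and Nfil3 were not called. Developmental genes that tell fat depots apart had 0 of 29 called by edgeR, 5 at an unadjusted p under 0.05 and 1 called by DESeq2, with a median of 0.

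**Figure D5:**
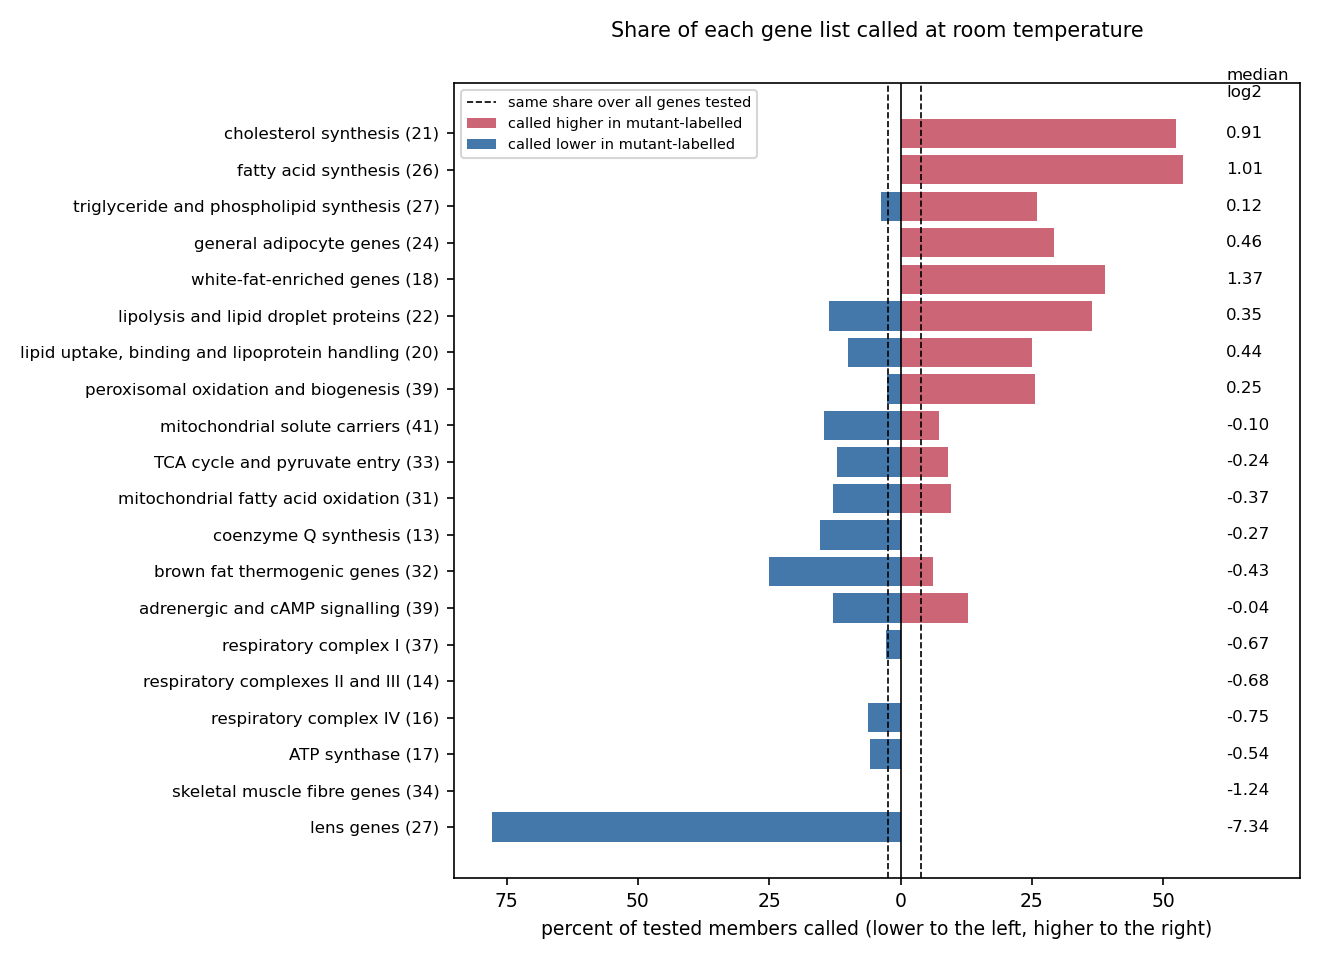
Percent of the tested members of 20 gene lists that were called higher (red, to the right) or lower (blue, to the left) in mutant-labelled libraries, with the number tested in parentheses and the median log2 fold change at the right edge. Dashed lines mark the shares over all genes tested, 3.92% higher and 2.32% lower; cholesterol and fatty acid synthesis reach 52.4 and 53.8% higher, lens genes 77.8% lower, and complexes II and III have a median of -0.68 with no call.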

How the data were processed

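Total RNA of brown adipose tissue went into NEB libraries after TRIzol and column purification, per the labels' protocols. The authors deposited raw read counts per gene; the submitters' processing notes name STAR, featureCounts and build mm9. Annotation, tool versions, strandedness and multi-mapping rules are not given in any source used here, so near-identical, overlapping and antisense genes are uncertain. Hba-a1 and Hba-a2 hold the same counts, and 75.8% of counts from 1 to 9 are even (50.7% of those over 1000). Mates of a read pair may therefore have been counted separately. Floors, and the fold bounds that rest on them, cover counting error only and may be too optimistic. The ± values are standard errors of the fit and also take in the spread between libraries.

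From these counts 15265 of 24197 genes were tested after filterByExpr (minimum count 10, minimum total 15) with edgeR 4.0.16 in R 4.3.3: TMM, robust dispersions and the two-sided quasi-likelihood test over all 12 libraries with 1 coefficient for each of 4 groups, contrast mutant minus control at room temperature. Standard errors are those implied by the F statistic. DESeq2 1.42.0 and limma 3.58.1 (voom with quality weights) were alternatives, and the fit was checked on simulated data. Replicate pairs differed by far more than counting noise. The unused per-sample columns numbered 0.

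Replicate numbers are shared between groups. Deviations of same-numbered libraries from their group means correlated at 0.165, 0.719 and 0.488 when log2 CPM used a prior count of 1, but at 0.0577, 0.781 and 0.504 on log2 of CPM plus 1, and control 1 correlated better with mutant 3 (0.51) than with mutant 1. No source ties the numbers to a litter or day, so pairing is unsettled and the block is an alternative.

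Genes named are a fixed set of 12, the 12 called genes with the largest change in each direction (mean CPM of at least 1, no overlap, leaving out unnamed gene models and the lens and muscle lists), and up to 3 called members per direction of each of 60 lists, or the 2 most abundant where none was called; some of these are not reported here. Genes outside this rule are said in the text to have been picked out after their values were seen, apart from members of the lens and marker lists. The libraries, lists and rule were chosen with earlier results of these data known. Promoters are from RefSeq (GRCm38.p6), with 11233 of the tested genes matched by symbol.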

Additional observations from a re-analysis of the deposited data

Results flagged for a closer look

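The genotype difference at room temperature was compared with that in the cold by the interaction term of the same edgeR fit. It differed (adjusted p under 0.05) for 23 of the 185 named genes, against 73 of all 15265 genes tested (0.478%). Of the named genes 154 were called at room temperature, and the naming rule favoured called genes. The interaction holds that same room temperature difference, so the share among named genes is raised in part by their choice. It does not show that these genes depend more on temperature than others. The values below are the log2 difference at room temperature minus that in the cold.

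Lens genes gave the widest gaps, at -8.77 for Cryba1, -8.68 for Crygs, -8.43 for Cryaa and -7.18 for Cryba4, with log2 fold changes in the cold between -0.54 and -0.16. Sterol and lipid genes higher at room temperature differed by 1.72 for Insig1, 1.81 for Nsdhl, 1.51 for Pmvk, 2.48 for Slc25a1 and 1.46 for Mogat1, and their cold values ran from -0.57 to 0.27. The mitochondrial carriers Slc25a42 and Slc25a34 differed by -1.84 and -3.42, and the lactate dehydrogenase gene Ldhb by -1.19 with a cold value of 0. The remaining genes that rose at room temperature were Sik1 (1.86), Mcam (1.32), Rbp4 (2.16), the retinol-binding protein gene, and Irf7 (1.95). Rbp4 went from 0.99 at room temperature to -1.16 in the cold, and Irf7 from 0.82 to -1.12.

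Among genes that fell at room temperature the difference was -3.70 for Fam131c, -6.20 for Sgk2, -3.52 for Il1rn, -2.58 for Kng2, -2.57 for the circadian repressor gene Nfil3, -1.89 for the cell cycle inhibitor gene Cdkn1a and -0.89 for Alpl, the alkaline phosphatase gene. In the cold 5 of these were positive, at 1.03 for Nfil3, 0.72 for Sgk2, 0.69 for Cdkn1a, 0.44 for Alpl and 0.43 for Il1rn.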

How the results depend on the processing

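Against 952 called genes (598 higher, 354 lower), DESeq2 called 1699 (1027 and 672), limma-voom with quality weights 2844 (1648 and 1196), the fit of only the room temperature libraries 552 (385 and 167), and the fit without the 3 muscle-rich libraries 312 (128 and 184). Leaving out 1 library gave 392 to 1160 called genes, 243 to 647 higher and 149 to 513 lower. The cause of these changes was not tested, beyond the loss of libraries that each fit makes. The replicate block called 786 genes, 509 higher and 277 lower, and beside its effects given in the report it changed no direction. RLE size factors, removal of the muscle and lens lists before normalization, other low-count filters and non-robust estimation kept the counts within 1.5 times. For 185 named genes over 17 alternatives, 2615 values of 3135 kept their direction and side of the threshold, 506 lost a call, 14 gained one and 0 reversed. Of 154 called named genes, 68 were called under every alternative other than the fit without muscle-rich libraries, where 1 control is left. Fewer kept their call when that fit was counted too. Cideb, Plin5, Ptdss2, Fabp3, Gnas, Coq10a, Acot5, Irf7 and Dlk1 were also not called with only the room temperature libraries in the fit, and Plin5 not with the replicate block. Depth limits the genes with 0 to 12 counts in mutant-labelled libraries, whose fold changes are imprecise.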
